A study of Rattus norvegicus with 6 samples.

Results

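A2m (alpha-2-macroglobulin) and 8 other genes of secreted, plasma-type proteins were followed in cerebral arteries of Dahl rats on low and high salt chow: Cp, Hp, Lcn2, Tf, Apoe, Apod, Clu and Vtn. Genes were matched by the array annotation's symbol, which found 8 of the 9 among 10411 genes with a probe set of their own. These 8 had 12 of the 15866 probe sets tested. The only probe set listing Tf (transferrin) also listed a neighbouring gene, so no value is given for Tf. A gene was represented by its main probe set, the one with the highest mean over the 6 arrays, and its other probe sets served as a check. The genes were chosen from a list drawn up with the differences between diets on these same arrays already known, so their levels and differences are a description and carry no test.

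The arteries were first-order branches of the basilar artery and circle of Willis (middle and posterior cerebral, and posterior cerebellar), taken intact from Dahl rats, which are known for the dependence of their blood pressure on dietary salt. From 7 weeks of age the low salt group ate chow with 0.4% NaCl and the high salt group chow with 8% NaCl, and all had been on 0.4% chow before. The low salt diet lasted 12 weeks, while for high salt the labels disagree, with 11 weeks among the characteristics and 12 weeks in the protocol. Each of the 3 arrays per diet held RNA pooled from 3 rats, 9 rats per diet. Some arteries were frozen in liquid nitrogen and others stored in RNAlater, with no record in the labels of which pool had which. The values are log2 expression levels, and every difference below is on the log2 scale, the high salt mean less the low salt mean, with limma's moderated standard error (SE).

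Many plasma proteins of this kind are made mainly by the liver, though not all, and several of them are also made inside the brain. The acute-phase response raises A2m, Hp, Cp and Lcn2, in large part through interleukin-6, its receptor subunit gp130 and the transcription factor STAT3, and A2m is a classical acute-phase protein of the rat. Astrocytes are the main source of Apoe in brain, Clu is secreted by astrocytes too, and A2m is made by reactive glia as well as by vessel walls. Vtn is made by pericytes, the cells that wrap small brain vessels.

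Of the 8 genes, A2m had the largest difference, 1.29 ± 0.35 (2.44-fold), followed by Apoe with 0.95 ± 0.38 (1.93-fold) and Apod with 0.74 ± 0.20 (1.66-fold). Cp, Clu, Lcn2 and Vtn had differences between 0.24 and 0.37, and that of Hp was 0.00 ± 0.10. No array of one diet overlapped the other for 3 of the 8 (A2m, Apoe and Apod, all higher on high salt), a pattern held by 8.64% of all genes in that direction. By limma with Benjamini-Hochberg adjustment over all 15866 probe sets 0 were called at an adjusted p below 0.05 (0% of the table), so 0 of the 8 genes were called. An unadjusted p below 0.05 was reached by 846 probe sets (5.33%). Since the rule drew on this contrast, nothing is read from these counts.

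**Figure D1:**
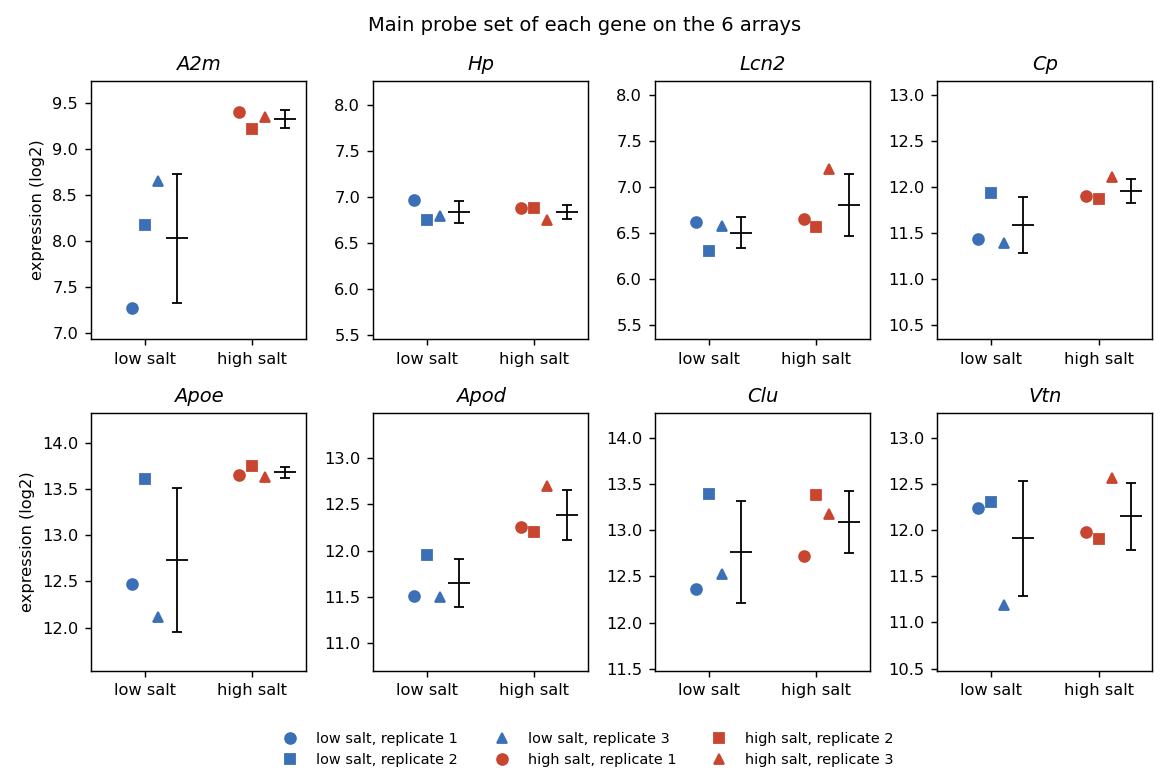
Log2 expression of the main probe set of 8 genes (vertical axes, each spanning 2.8 log2 units) on the 3 low salt arrays (blue) and 3 high salt arrays (red). Symbols mark replicates, and the black bar beside each diet is its mean with the SD over 3 arrays. For A2m the low salt arrays spread from 7.28 to 8.65 and the high salt arrays lie between 9.22 and 9.40, and for Apoe low salt replicate 2 stands with the high salt arrays.

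A2m, a large protease inhibitor that traps proteases and also binds growth factors, read 7.28, 8.18 and 8.65 on low salt replicates 1 to 3. On high salt replicates 1 to 3 it read 9.40, 9.22 and 9.35. All 3 high salt arrays lay above all 3 low salt arrays, with 0.57 log2 units between the nearest arrays of the diets. The mean was 8.03 ± 0.70 (SD, n = 3) on low salt and 9.32 ± 0.10 on high salt, so that the low salt arrays held most of the spread. The difference ran from 0.91 without low salt replicate 1 to 1.60 without low salt replicate 3. After median centring it was 1.16, as after quantile normalization. A2m had 1 probe set. Pzp and Mug1, secreted proteinase inhibitors of the same macroglobulin family, had differences of -0.22 ± 0.18 and -0.05 ± 0.09 (both chosen for naming after their values were seen). Their mean levels were 6.65 and 4.97, with the lower quartile of the arrays at 6.53 to 6.65. Both were thus too dim for a small difference to be read.

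Hp (haptoglobin) captures free haemoglobin in plasma. It read 6.97, 6.75 and 6.79 on low salt replicates 1 to 3 and 6.88, 6.88 and 6.76 on high salt replicates 1 to 3. The diets overlapped, and the 6 values spanned 0.22 log2 units. Its sign turned in 6 of 13 alternative settings, with values between -0.13 and 0.07. Lcn2 (lipocalin-2), which binds bacterial iron carriers, read 6.62, 6.31 and 6.58 on low salt and 6.65, 6.57 and 7.19 on high salt, in replicate order. High salt replicate 3 stood above the other 5 arrays, which overlapped between diets. The difference was 0.30 ± 0.20, with 0.11 ± 0.15 without that array, 0.20 without low salt replicate 2 and 0.17 after median centring. The means of Hp and Lcn2, 6.84 and 6.66, lie near the lower quartile of the arrays (6.53 to 6.65).

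Cp (ceruloplasmin) carries copper and oxidises iron, and in brain a membrane-anchored form sits on astrocytes. Its main probe set read 11.43, 11.93 and 11.39 on low salt replicates 1 to 3 and 11.90, 11.87 and 12.11 on high salt replicates 1 to 3. Low salt replicate 2 lay within the high salt values, and the other low salt arrays lay below all of them. The difference was 0.37 ± 0.18 for this probe set, 0.78 ± 0.46 for the second and 0.63 ± 0.37 for the third, each with overlap between diets. On the second probe set the span over the 6 arrays was 1.98 log2 units, against 0.72 on the main one. The 3 probe sets shared a sign and differed in size by more than 1.5 times. The main probe set stood at 0.24 after median centring, and quantile normalization gave 0.18.

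Apoe (apolipoprotein E) carries cholesterol and other lipids between brain cells. It read 12.48, 13.62 and 12.11 on low salt replicates 1 to 3, and 13.66, 13.76 and 13.64 on high salt replicates 1 to 3. The lowest high salt array exceeded the highest low salt array by 0.02 log2 units, so the lack of overlap rests on a margin far smaller than the SD of the low salt group (0.79). Low salt replicate 2 lay with the high salt arrays, and the other low salt arrays lay more than 1 log2 unit below them. Leaving out low salt replicate 2 took the difference from 0.95 to 1.39 ± 0.15, and leaving out low salt replicate 3 took it to 0.64 ± 0.35. A second probe set gave -0.03 ± 0.10 at a mean level of 5.27, below the lower quartile of the arrays.

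Apod (apolipoprotein D), a lipocalin that binds small lipids, read 11.50, 11.95 and 11.50 on low salt replicates 1 to 3. On high salt replicates 1 to 3 it read 12.26, 12.20 and 12.70. The diets did not overlap, and the nearest arrays were 0.26 log2 units apart. The mean was 11.65 ± 0.26 (SD, n = 3) on low salt and 12.39 ± 0.27 on high salt. The difference of 0.74 ± 0.20 ran from 0.58 to 0.88 with 1 array left out, with 0.60 under median centring and 0.58 under quantile normalization.

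Clu (clusterin, or apolipoprotein J), an extracellular chaperone that also inhibits complement, read 12.36, 13.40 and 12.53 on low salt replicates 1 to 3. It read 12.72, 13.38 and 13.18 on high salt replicates 1 to 3. The highest value of all was on low salt replicate 2, and the diets overlapped. The difference was 0.33 ± 0.32. Leaving out 1 array at a time gave 0.13 (low salt replicate 1 left out) to 0.65 ± 0.22 (low salt replicate 2 left out), and the 2 scalings gave 0.20 (median centring) and 0.19 (quantile normalization). A dimmer probe set gave 0.25 ± 0.35, with high salt replicate 2 at 8.54 and the other 5 arrays between 7.33 and 7.81. Without high salt replicate 2 its difference was -0.14 ± 0.18, while that of the main probe set was 0.19.

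Vtn (vitronectin), an adhesive protein that binds integrins and the inhibitor PAI-1, read 12.24, 12.31 and 11.19 on low salt replicates 1 to 3, and 11.98, 11.91 and 12.57 on high salt replicates 1 to 3. Low salt replicate 3 was the lowest array and high salt replicate 3 the highest. The other 4 arrays lay between 11.91 and 12.31, with both low salt arrays above both high salt arrays. The difference was 0.24 ± 0.36. It was 0.03 without high salt replicate 3 and -0.12 without low salt replicate 3, against 0.41 and 0.44 when low salt replicate 1 or 2 was the one left out. Array weights gave 0.61, median centring 0.11 and quantile normalization 0.08.

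The 8 genes are to be read against a shift over the whole table. The median gene had a difference of 0.07, and 60.0% of genes were higher on high salt. Median centring took these to -0.06 and 42.8%, and quantile normalization to -0.02 and 46.3%. The shift grew with level: the median was -0.04 for the lowest quintile by level and 0.26 for the brightest quintile, which began at 10.13. Cp, Apoe, Apod, Clu and Vtn all belong to the brightest quintile. Beside the median of that quintile stand differences of 0.24 (Vtn), 0.33 (Clu), 0.37 (Cp), 0.74 (Apod) and 0.95 (Apoe). A2m, at a mean level of 8.68, belongs to the middle quintile, which had a median of 0.14. These values are set side by side as a description, without a test. All 8 genes had a difference above 0, with a median of 0.35, against 7 of 8 and a median of 0.22 after median centring and 7 of 8 and 0.25 after quantile normalization. Hp was the gene whose sign turned under both scalings.

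Markers of astrocytes moved with several of the 8 genes. Of 12 astrocyte markers, 11 were higher on high salt, with a median difference of 1.12, and 0 were called (limma, Benjamini-Hochberg). Their mean was 8.87, 10.67 and 8.25 on low salt replicates 1 to 3, and 10.58, 10.33 and 10.35 on high salt replicates 1 to 3. Low salt replicate 2 was thus the highest of all 6 arrays. Gja1, the main astrocyte connexin, differed by 0.71 ± 0.49, and Mlc1, a membrane protein of astrocyte endfeet, by 1.92 ± 0.94. The glutamate transporter Slc1a2 was dim and flat on this array, between 6.79 and 6.96 (named after its values were seen). The arteries were bulk samples, so fewer cells of a type and less RNA per cell cannot be told apart.

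With the astrocyte marker mean as a covariate in the fit, the difference of Apoe went from 0.95 to 0.24 ± 0.14 and that of Cp from 0.37 to 0.11 ± 0.15. Clu went from 0.33 to -0.10 ± 0.32 and Vtn from 0.24 to -0.16 ± 0.40. The difference of Apod was 0.52 ± 0.22 in that fit. A2m kept a difference of 1.33 ± 0.48, and Lcn2 had 0.46 ± 0.25. Compared array by array, low salt replicate 2 stood 1.15 log2 units below the high salt mean for A2m and 0.44 below it for Apod. For Apoe the same distance was 0.07 and for Cp 0.02. For Clu and Vtn low salt replicate 2 stood above the high salt mean, which was -0.30 and -0.15 log2 units away from it. The covariate and the diet were themselves related over these 6 arrays, so the fit separates them only through low salt replicate 2 and the spread within diets.

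**Figure D2:**
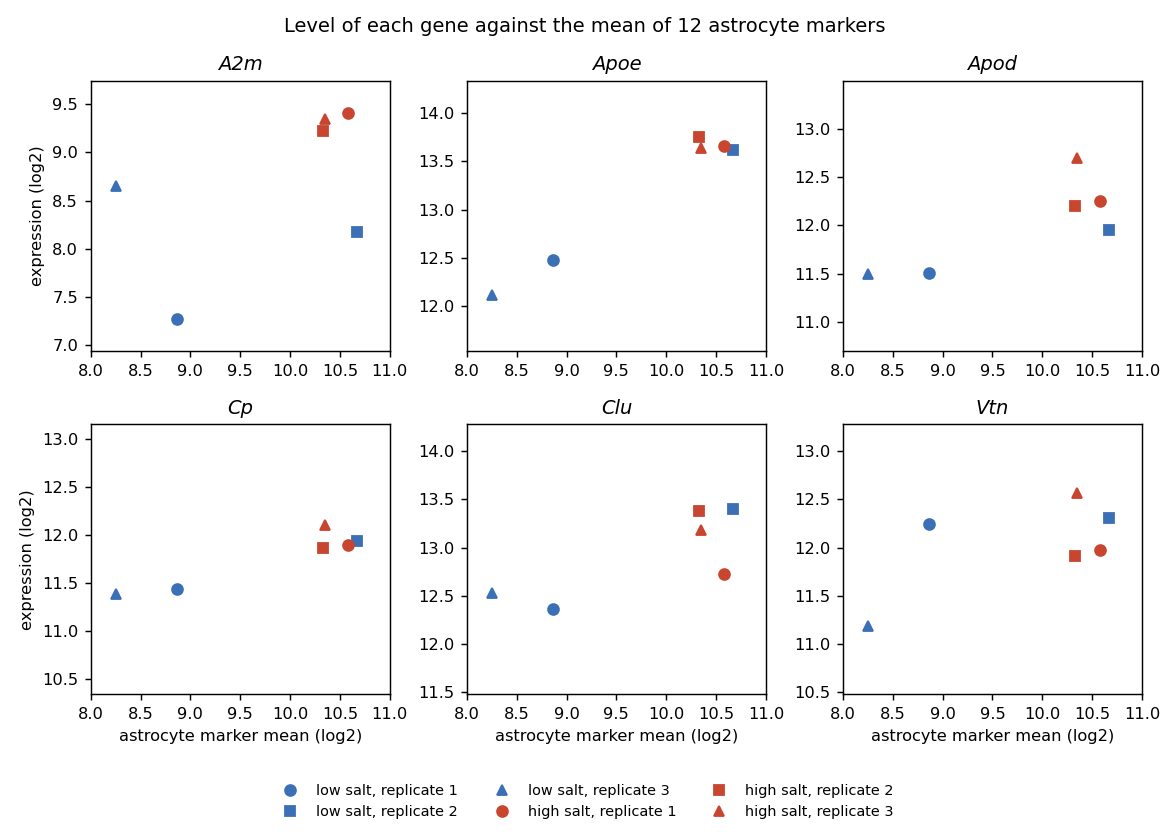
Log2 expression of 6 genes (vertical axes, each spanning 2.8 log2 units) against the mean log2 level of 12 astrocyte markers on the same array (horizontal axis), 1 point per array, blue for low salt and red for high salt. Low salt replicate 2 (blue square, astrocyte mean 10.67) lies with the high salt arrays for Apoe and Cp and below them for A2m, at 8.18.

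Other cell types that can supply these proteins were compared in the same way, and their part in the result was not tested. Of 10 microglia or macrophage markers 8 were higher, with a median of 0.24, and their mean ran from 8.87 to 9.34 on low salt and from 9.30 to 9.66 on high salt. Under each of the scalings 6 of 10 were higher, with a median of 0.11 after median centring and 0.08 after quantile normalization. C1qa, a complement subunit of microglia and macrophages, differed by 1.19 ± 0.34, and the lysozyme gene Lyz2 by 0.30 ± 0.21. Of 9 fibroblast or meningeal markers 8 were higher, with a median of 0.23, and their mean ran from 10.55 to 11.15 on low salt and from 10.79 to 11.33 on high salt. Under each of the scalings 5 of 9 were higher, with a median of 0.10 after median centring and 0.07 after quantile normalization. Among the 9 markers the transporter Slc22a6 differed by 0.88 ± 0.47 and the proteoglycan Dcn by -0.56 ± 0.37. Of 7 pericyte markers 3 were higher, with a median of -0.09, and the diets overlapped in their mean. The proteoglycan Cspg4 differed by 0.17 ± 0.41 (-0.07 after quantile normalization) and the channel subunit Abcc9 by -0.61 ± 0.28. Of 8 oligodendrocyte markers 4 were higher and 4 lower, with a median of -0.05. The myelin genes Mbp and Cnp differed by 1.23 ± 0.49 and 0.24 ± 0.14.

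Markers of red blood cells stood higher on the high salt arrays. All 3 measured were higher, with a median of 0.93, and their mean ran from 10.03 to 10.22 on low salt and from 10.46 to 11.18 on high salt. Hbb, the beta chain of haemoglobin, read 12.46, 13.28 and 13.26 on low salt replicates 1 to 3 and 14.03, 13.80 and 13.99 on high salt replicates 1 to 3. Its diets did not overlap, as for A2m, with low salt replicate 1 lowest for both, and the difference was 0.94 ± 0.24. The part of red blood cell RNA in the values of the 8 genes was not tested.

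In these lists of other cell types limma called 0 genes (Benjamini-Hochberg). All 8 smooth muscle markers were lower, with a median of -0.15, whereas with the astrocyte marker mean as covariate 6 of 8 were higher and the median was 0.15. Their mean was 12.00, 11.12 and 12.02 on low salt and 11.48, 11.38 and 11.31 on high salt, in replicate order. Low salt replicate 2 was thus the lowest array, and the diets overlapped. Myl9, a myosin light chain, differed by -0.74 ± 0.30, while Tagln, an actin-binding protein and the brightest of the list, lay between 13.33 and 13.92 on the 6 arrays. Of 7 endothelial markers 6 were higher, with a median of 0.13 that turned to -0.10 under quantile normalization. The growth factor receptor Kdr differed by 1.14 ± 0.68 and the tight junction gene Cldn5 by -0.10 ± 0.20. Of 6 choroid plexus markers 3 were higher, with a median of 0.01 that turned to -0.12 (median centring) and -0.01 (quantile normalization). Ttr, also on the list of other plasma-type genes, varied widely within each diet (named after its values were seen). It read 8.99, 8.55 and 6.45 on low salt and 8.69, 9.99 and 6.76 on high salt, in replicate order. The water channel Aqp1 averaged 7.80 ± 0.46 on low salt and 9.30 ± 0.81 on high salt (SD, n = 3 each), without overlap between diets. Of 7 neuron markers 2 were higher, with a median of -0.10, and Rbfox3, a splicing factor of neurons, differed by -0.26 ± 0.12. Their mean was highest on low salt replicate 2, at 7.16 against 6.83 to 6.92 on the other arrays. Snap25 read 8.47 on that array, against 7.06 to 7.62 on the others (named after its values were seen).

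Liver-type markers lay on average near the lower quartile of the arrays. The mean of 10 hepatocyte markers ran from 6.44 to 6.66 over the 6 arrays, with 2 of 10 higher on high salt and a median of -0.09. The brightest of them, the protease inhibitor Serpina1, differed by 0.14 ± 0.09 at a mean level of 7.76, and Fgb, that of lowest p, is given with the other plasma-type genes. Neutrophil markers, a further source of Lcn2, had a median of 0.13 over 5 genes, and their mean was highest on high salt replicate 2, at 6.85 against 6.30 to 6.45 on the other arrays. The chemokine receptor Cxcr2 differed by -0.02 ± 0.09. S100a9, a calcium-binding protein of neutrophils, differed by 0.78 ± 0.46. Lcn2 read 6.57 on that array, within the range of the low salt arrays.

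**Figure D3:**
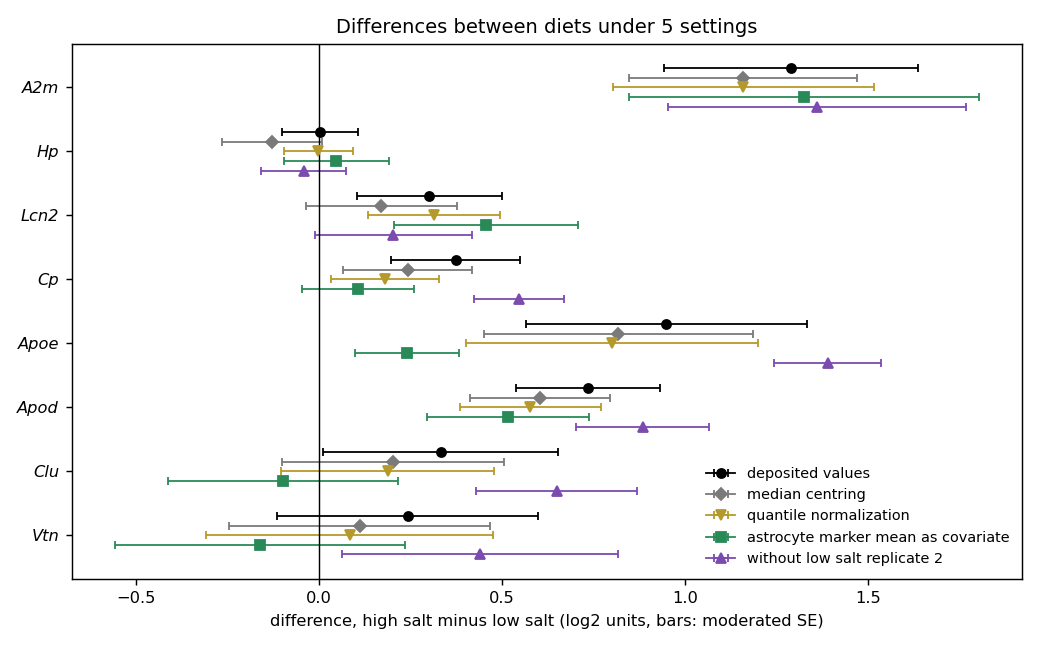
Difference between diets of 8 genes, high salt minus low salt on the log2 scale (horizontal axis), with the moderated SE as bars, under 5 settings of the fit marked by colour and symbol. A2m stays between 1.16 and 1.36 under the settings shown, while Apoe runs from 0.24 with the astrocyte covariate to 1.39 without low salt replicate 2.

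Among 39 other measured genes of plasma-type secreted proteins, 18 were higher on high salt and 21 lower, with a median of -0.02 against 0.07 over all genes. The sign went with level: all lower genes had mean levels of 7.52 or less, and each gene at 8.12 (Lcat) or above was higher. The median over all genes is not matched for level. It was -0.04 in the lowest quintile, -0.01 in the next, which ended at 8.10, and 0.26 in the brightest. By limma with Benjamini-Hochberg adjustment 0 of 39 were called, and 1 stood at an unadjusted p below 0.05, where 0.711% of all genes were lower by that rule. That gene was Hpx (hemopexin, the haem carrier), at -0.31 ± 0.10. The largest differences in the other direction belonged to Rbp4 (the retinol carrier, 1.10 ± 0.45), Igfbp2 (an insulin-like growth factor binding protein, 0.96 ± 0.44) and Lcat (which esterifies cholesterol on lipoproteins, 0.94 ± 0.57). Rbp4 read 10.78, 12.29 and 10.84 on low salt replicates 1 to 3 and 12.44, 12.73 and 12.02 on high salt replicates 1 to 3. It thus shared with Apoe and Cp a low salt replicate 2 at the level of the high salt arrays. Agt, the angiotensin precursor that astrocytes make in brain, differed by 0.42 ± 0.22, and Ptgds, a lipocalin and prostaglandin D synthase of the meninges, by 0.26 ± 0.16.

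Among the lower genes of this list with the lowest p, Fgb and Fgg, chains of fibrinogen, differed by -0.21 ± 0.10 and -0.16 ± 0.11, the lipoprotein Apob by -0.20 ± 0.12 and the vitamin D carrier Gc by -0.17 ± 0.13. These 4 had mean levels between 5.89 and 7.52. Cst3 (cystatin C) and Serping1 (the C1 inhibitor), bright genes of this list, differed by 0.10 ± 0.28 and 0.23 ± 0.16. After median centring 10 of the 39 genes were higher and 29 lower, where 42.8% of all genes were higher. After quantile normalization 15 were higher and 24 lower, where 46.3% of all genes were higher.

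Of 16 measured receptors and partners of these proteins 11 were higher and 5 lower, with a median of 0.14 (0.01 after median centring and -0.01 after quantile normalization). By limma with Benjamini-Hochberg adjustment 0 of 16 were called, and the lowest adjusted p was 0.803. At an unadjusted p below 0.05 stood 1 of 16, where 5.72% of all genes were higher by that rule. It was Itgb5, an integrin subunit that pairs with alpha V to bind Vtn, with 8.97, 9.27 and 9.40 on low salt replicates 1 to 3 and 10.11, 9.54 and 10.05 on high salt replicates 1 to 3. Its diets did not overlap, and the difference was 0.69 ± 0.20. Lrp1, which takes up A2m-protease complexes and Apoe, differed by 0.24 ± 0.25. Lrp8, an Apoe and reelin receptor, differed by -0.46 ± 0.20 without overlap, a pattern held by 3.32% of all genes in that direction. Its nearest arrays were close, with low salt replicate 3 at 9.10 and high salt replicate 3 at 9.03, and low salt replicate 1 was highest, at 9.82.

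Further receptors and partners differed by less than 2 SE. The lipid exporter Abcg1 differed by 0.31 ± 0.23, Heph, a ferroxidase related to Cp, by 0.42 ± 0.37, and Hspa5, an endoplasmic reticulum chaperone that can bind activated A2m at the cell surface, by 0.81 ± 0.43. The transferrin receptor Tfrc differed by -0.02 ± 0.14 and the Lcn2 receptor Slc22a17 by 0.13 ± 0.37. The lipoprotein receptor Scarb1 differed by -0.13 ± 0.36. Lrp2 (-0.04 ± 0.08) and the urokinase receptor Plaur (-0.03 ± 0.12) had mean levels of 6.49 and 5.41.

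Acute-phase signalling genes showed 16 of 24 higher and 8 lower, with a median of 0.08 (-0.05 after median centring and 0.03 after quantile normalization). Of these 0 were called by limma with Benjamini-Hochberg adjustment, and 0 stood at an unadjusted p below 0.05. Il6st, which encodes gp130, read 10.58, 11.76 and 11.49 on low salt replicates 1 to 3 and 11.72, 11.79 and 12.15 on high salt replicates 1 to 3. Low salt replicate 1 stood apart below, and the other arrays overlapped between diets, with a difference of 0.61 ± 0.32. Stat3 differed by 0.52 ± 0.29, the nuclear factor kappa B inhibitor Nfkbia by 0.72 ± 0.35 and the interferon-regulated factor Irf1 by 0.44 ± 0.24. Cntf, a cytokine that signals through gp130, differed by 0.23 ± 0.11. It was the 1 gene of the 24 without overlap between diets, where 8.64% of all genes were higher by that rule. Its mean level was 6.98, and the difference was 0.10 after median centring.

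The feedback inhibitor Socs3, a STAT3 target, differed by -0.21 ± 0.14, and the receptor chains Lifr and Cntfr by -0.19 ± 0.14 and -0.27 ± 0.21. The liver factor Hnf4a differed by -0.10 ± 0.09 and Tnf by -0.13 ± 0.14. Il6 itself read between 5.29 and 5.41 on the 6 arrays, with a difference of 0.01 ± 0.09, and was named after its values were seen. That range lies below the lower quartile of the arrays.

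**Figure D4:**
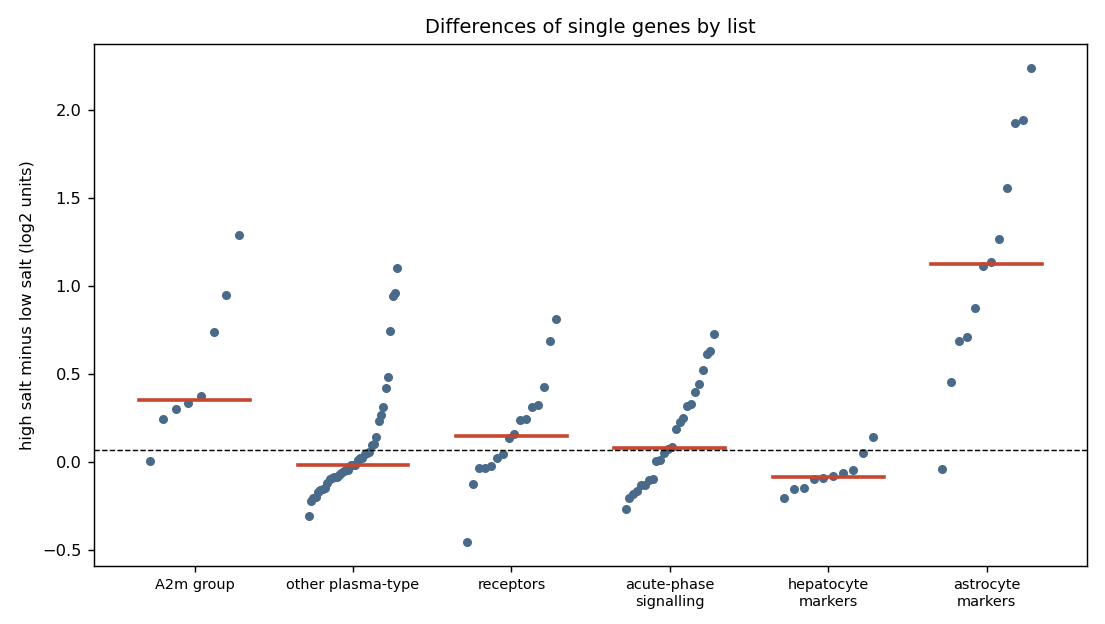
Difference between diets of single genes, high salt minus low salt on the log2 scale (vertical axis), 1 point per gene in ascending order within each of 6 gene lists. Red lines are list medians and the dashed line is the median of all 10411 genes, at 0.07. The A2m group, chosen with these differences known, has a median of 0.35, the other plasma-type proteins -0.02 and the astrocyte markers 1.12. The lists were not matched for mean level, and the lower genes among the other plasma-type proteins all had mean levels of 7.52 or less.

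For the 5 genes whose values spanned more than 1 log2 unit, the most similar profiles were sought among genes above the median level of 8.62. Likeness was the root mean square difference over the 6 arrays, in log2 units, after each profile was centred on its mean. Nearest to A2m were Egr2 (0.099), Ets2 (0.15) and Scarb2 (0.19). Egr2, a zinc finger factor of the immediate early class, read 8.39, 9.57 and 9.91 on low salt replicates 1 to 3 and 10.64, 10.32 and 10.61 on high salt replicates 1 to 3. Egr2 was picked for its likeness to A2m on these arrays, so their shared order over the low salt arrays follows from that choice. Nearest to Apoe were Celf2, Slc19a1 and Fuca2 (all 0.15), and nearest to Apod were Glb1 (0.11), Fam53c (0.13) and Tec (0.15). Nearest to Clu were Arhgap21 (0.072), Colec12 (0.086) and Efemp1 (0.089), and nearest to Vtn were Slc1a1 (0.19), Tcn2 (0.21) and Msln (0.23).

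Promoter windows are shown for Apoe, Apod and Cp, and for Lcn2 and Vtn, because acute-phase genes are known to be driven through STAT sites near their start. RefSeq windows of the build GRCr8, from 250 bases before to 50 after a start site, were found for 6 of the 9 genes, Apoe with 3 start sites (1 is printed), and A2m, Hp and Clu were not among them. The motifs searched on both strands were TTCNNNGAA, the STAT palindrome, and CTGGGA, the core of the interleukin-6 response element, which can lie inside the first. Letters are 5′ to 3′ on the gene's strand, and capitals mark matches to either motif.
Apoe (chr1:88484650-88484949, minus strand): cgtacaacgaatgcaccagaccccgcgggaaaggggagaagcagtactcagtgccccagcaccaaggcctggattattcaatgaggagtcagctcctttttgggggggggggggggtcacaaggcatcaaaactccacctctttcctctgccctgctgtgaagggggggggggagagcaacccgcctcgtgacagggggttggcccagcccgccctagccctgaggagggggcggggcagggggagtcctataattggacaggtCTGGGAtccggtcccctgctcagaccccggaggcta
Apod (chr11:82935970-82936269, plus strand): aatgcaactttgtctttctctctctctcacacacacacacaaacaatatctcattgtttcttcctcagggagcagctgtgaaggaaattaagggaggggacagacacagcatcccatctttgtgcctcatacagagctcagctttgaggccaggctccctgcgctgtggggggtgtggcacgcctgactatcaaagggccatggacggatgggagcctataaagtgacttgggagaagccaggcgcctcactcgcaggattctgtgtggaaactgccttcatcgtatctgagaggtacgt
Cp (chr2:104368420-104368719, plus strand): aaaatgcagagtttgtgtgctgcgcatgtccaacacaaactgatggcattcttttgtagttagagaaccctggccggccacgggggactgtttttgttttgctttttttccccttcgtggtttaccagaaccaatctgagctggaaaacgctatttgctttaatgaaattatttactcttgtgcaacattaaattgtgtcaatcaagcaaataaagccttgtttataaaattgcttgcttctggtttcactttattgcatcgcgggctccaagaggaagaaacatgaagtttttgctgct
Lcn2 (chr3:36081731-36082030, minus strand): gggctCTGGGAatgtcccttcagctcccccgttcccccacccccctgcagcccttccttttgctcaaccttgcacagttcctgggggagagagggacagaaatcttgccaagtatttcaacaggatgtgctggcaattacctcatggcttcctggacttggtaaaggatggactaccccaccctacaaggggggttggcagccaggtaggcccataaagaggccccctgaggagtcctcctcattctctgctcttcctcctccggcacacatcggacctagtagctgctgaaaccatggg
Vtn (chr10:63892532-63892831, plus strand): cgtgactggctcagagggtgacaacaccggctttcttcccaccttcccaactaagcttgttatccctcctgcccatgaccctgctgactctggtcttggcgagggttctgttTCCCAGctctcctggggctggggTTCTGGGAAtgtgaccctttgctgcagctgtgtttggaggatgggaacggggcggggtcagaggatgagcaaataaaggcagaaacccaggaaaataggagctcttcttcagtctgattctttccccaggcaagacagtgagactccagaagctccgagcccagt

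The STAT palindrome was found in 1 of the 6 genes, Vtn, from -115 to -107 relative to the start site, and the core lies within it. Of all 33469 windows of this length, 8.87% hold the palindrome and 30.3% hold the core. The core was found in 3 of the 6 genes. In Vtn a second copy lay on the opposite strand from -138 to -133, in Lcn2 it lay from -245 to -240, and in the Apoe window shown from 15 to 20. Apod and Cp, printed above, held neither motif in these windows. Among genes with a match, the differences given above were 0.24 ± 0.36 (Vtn), 0.30 ± 0.20 (Lcn2) and 0.95 ± 0.38 (Apoe). Without a match they were 0.74 ± 0.20 (Apod) and 0.37 ± 0.18 (Cp). A link between matches and differences was not tested. A match describes letters only.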

How the data were processed

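RNA pools were amplified in 2 cycles and hybridised to an Affymetrix rat array, 1 per pool. The deposited log2 values, 1 per probe set and array, were made by the authors with RMA (background correction, scaling between arrays, probe summary), per the submitters' processing notes. Version and normalization settings are not given in the sources used here, and base 2 was read from the range of the values. Medians still differed between arrays (7.96 to 8.17).

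Control probe sets (57 of 15923 rows) were left out. Probe sets with several symbols (312) named no gene. One model per probe set was fitted with limma (version 3.58.1, R 4.3.3; lmFit and eBayes), 3 arrays against 3, no block, with Benjamini-Hochberg adjustment over 15866 probe sets and a threshold of 0.05. No 2 arrays were identical (0 pairs). The fit was checked on simulated data. Pools are separate rats, so the spread joins pool and array error, and the number of arrays limits the precision.

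The members, lists and tests were chosen with earlier results of these data known. Named from each other list were up to 5 genes per direction of lowest unadjusted p and the 3 brightest, and from each marker list the brightest and that of lowest p, with exceptions stated where they occur. Alternatives were scaling by medians or quantiles, dropping probe sets under the 40th percentile of mean level, robust or trended variance moderation, array weights, a replicate block, 1 array left out, an astrocyte covariate, other probe sets and other thresholds.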

Additional observations from a re-analysis of the deposited data

How the results depend on the processing

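The number of arrays (3 per diet) limits the precision, with SE from 0.10 to 0.38 for the 8 genes, and Hp and Lcn2 were too dim for a small difference to be read. Under every alternative fit run, limma called 0 probe sets at an adjusted p below 0.05, so 0 of the 8 genes and 0 genes of the other lists. On all 6 arrays as deposited it called 0 at an adjusted p below 0.10, against 92 without low salt replicate 2, and it gave 846 at an unadjusted p below 0.05. The latter count was 1439 with array weights, and 366 to 2722 with 1 array left out, the lowest without high salt replicate 1 and the highest without low salt replicate 2. The replicate number as a block gave 716 at that level and 0 called. Same-numbered arrays deviated from their group means with correlations of 0.04, -0.27 and 0.04, and 0 of 6 arrays correlated best with their own number, so the numbers were not taken as pairs. The main probe sets of A2m, Apoe, Apod, Cp and Lcn2 kept their sign in every fit that held them, while the dim second probe set of Apoe stood at -0.03. Of the 8 genes 6 to 8 had a difference above 0 with 1 array left out, and 6 with the astrocyte covariate. The filter left 6 genes, without Hp and Lcn2, all above 0. The mean of all probe sets gave 0.59 for Cp, 0.46 for Apoe and 0.29 for Clu.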
